A study of Homo sapiens with 2 samples.

Results

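The genes described here are the replication-dependent histone genes of TFK1, an established cholangiocarcinoma (CCA) cell line. They were taken by name from the deposited gene tables: every symbol of the older form HIST, a cluster number from 1 to 4, then H1, H2A, H2B, H3 or H4 and a letter code, with 1 row kept per symbol. Pseudogenes whose names end in PS and a digit, 13 in all, were dropped, and none of them held more than 8 counts in a library. This left 76 members among 56638 genes: 6 of class H1, 17 of H2A, 23 of H2B, 15 of H3 and 15 of H4. Of these, 55 carry names of cluster HIST1, 16 of HIST2, 4 of HIST3 and 1 of HIST4. The name rule does not separate coding genes from copies that other annotations call pseudogenes, and 6 members are annotated as pseudogenes in GENCODE 29.

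RNA-seq was run on TFK1 cells in which MBD2, a reader of methylated CpG sites, was knocked down with a short hairpin RNA (shMBD2) and on negative control cells with a control hairpin (shNC). The labels give no further treatment. Hairpins of the study were delivered with lentivirus from the pLKO.1 vector and transduced cells were selected with puromycin or G-418, so both libraries come from selected cultures; which of the MBD2 hairpins the sequenced cells carried is not given in the labels. Each condition has 1 library, with 14728814 reads counted on genes in shMBD2 and 14467406 in shNC, so nothing below could be checked against replicates and no p-value is given. Log2FC is shMBD2 over shNC on the log2 scale, from counts scaled with TMM factors and 0.5 counts added. It was computed for each gene whose counts in both libraries came to 10 or more. The 95% intervals are exact Clopper-Pearson intervals on how a gene's reads divide between shMBD2 and shNC, and they hold the error of counting alone. MBD2, the targeted gene, had 365 counts in shMBD2 and 1013 in shNC, a log2FC of -1.48 (interval -1.66 to -1.31).

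Replication-dependent histone genes supply the core histones H2A, H2B, H3 and H4 and the linker histone H1 that package newly copied DNA, and they are transcribed mainly in S phase. They lie in clusters, most of them lack introns, and their mRNAs are the known case of metazoan mRNAs that end without a poly(A) tail: the 3′ end is formed by cleavage just after a short stem-loop, which the stem-loop binding protein SLBP holds. Some of these genes also make a longer transcript that is spliced or read past the stem-loop to a polyadenylation site, a form known from differentiated and non-dividing cells.

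The stem-loop is shown first because it is the feature that sets these mRNAs apart. The histone 3′ stem-loop consensus, of 16 bases with any base allowed at 3 of them, was searched on the sense strand of the GENCODE 29 transcripts (GRCh38). It was present in 34 of the 76 members and in 6 of the other genes, which is 0.0105% of them. Of the 42 members without a match, 32 have only annotated transcripts that run from the start codon to the stop codon, so no downstream sequence could be searched. The matches, in capitals, are given with 5 bases on each side for members that recur below.
HIST1H2AC: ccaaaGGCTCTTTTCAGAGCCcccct
HIST3H2A: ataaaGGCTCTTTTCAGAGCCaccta
HIST1H2AG: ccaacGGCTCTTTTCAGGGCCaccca
HIST1H2BD: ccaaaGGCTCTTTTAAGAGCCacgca
HIST2H2BE: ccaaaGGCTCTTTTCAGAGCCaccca
HIST1H3H: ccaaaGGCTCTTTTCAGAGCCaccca
HIST3H3: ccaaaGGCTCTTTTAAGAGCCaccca
HIST1H4H: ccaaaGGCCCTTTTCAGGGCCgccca
HIST1H4I: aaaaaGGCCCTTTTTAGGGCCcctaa

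In GRCh38 these matches lie at chr6:26124669-26124684 on the plus strand for HIST1H2AC, chr1:228457369-228457384 on the minus strand for HIST3H2A, and chr6:27133515-27133530 on the plus strand for HIST1H2AG. Those of the H2B members are at chr6:26158587-26158602 on the plus strand for HIST1H2BD and chr1:149886188-149886203 on the minus strand for HIST2H2BE. The H3 matches are at chr6:27810516-27810531 on the plus strand for HIST1H3H and chr1:228424853-228424868 on the minus strand for HIST3H3. For H4 they are at chr6:26285131-26285146 on the minus strand for HIST1H4H and chr6:27139654-27139669 on the plus strand for HIST1H4I. All lie downstream of the coding sequence.

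One stem-loop, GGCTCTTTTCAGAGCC, was shared by 18 members of classes H2A, H2B and H3. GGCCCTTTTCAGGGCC was found in 5 members and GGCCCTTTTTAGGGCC in 3, all of them H4 genes, and no H4 gene held another form. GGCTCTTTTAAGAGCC occurred in 5 members and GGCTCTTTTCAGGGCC in 3. In 24 members the annotated transcript runs at least 100 bases past the stem-loop, by 1128 bases in HIST1H2AC, 1729 in HIST2H2BE, 1761 in HIST1H2AG and 1655 in HIST1H4H. In HIST1H2BD the transcript with the match ends 39 bases after it, and in HIST3H3 8 bases after it. No match was found in the annotated transcripts of HIST1H2BJ or HIST1H3E. HIST1H2BK and HIST1H1C had no match either, but their only annotated transcripts, of 381 and 642 bases, end at the stop codon, so their stem-loops could not be searched.

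Histone transcripts were few in both libraries, and most of the reads came from a handful of genes. The 76 members together held 1352 counts in shMBD2 and 1469 in shNC, or 91.8 and 101.5 reads in every 1000000. Of these, 27 members were listed at 0 in both libraries, 25 had 1 to 9 counts summed over both, and 24 passed the filter of 10 counts. The 8 members with the most counts held 81.1% of the member counts in shMBD2 and 78.4% in shNC. Per length, 7 members reached 10 TPM (transcripts per 1000000 transcripts) in a library and 31 reached 1 TPM, where the median over genes with at least 10 counts was 15.6 TPM in shMBD2 and 15.9 in shNC. Whether poly(A) RNA was selected for these libraries is not given in the sources used here. Such a selection depletes mRNAs without a tail.

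By TPM, the order was led by HIST1H2BK, an H2B gene whose H4 neighbour HIST1H4I lies on the opposite strand within its span, with 77.9 TPM in shMBD2 and 69.2 in shNC. HIST1H1C, the gene of linker histone H1.2, followed with 36.8 and 43.9 TPM. HIST1H2BD, another H2B gene, had 32.8 and 38.9 TPM. The exact Poisson intervals of these levels (95%, counting error only) set HIST1H2BK apart from the next gene in both libraries, while those of HIST1H1C and HIST1H2BD overlapped in both. HIST1H2AC, an H2A gene, had 25.3 TPM in shMBD2 and 23.2 in shNC. HIST3H2A, the H2A gene of the small cluster on chromosome 1, had 16.6 and 26.8 TPM, so that it was below HIST1H2AC in shMBD2, where the intervals were 12.2 to 22.0 TPM for HIST3H2A and 22.2 to 28.7 TPM for HIST1H2AC, and overlapped with it in shNC. The gene lengths behind the TPM values are not given in the sources used here, and for genes with a short and a long transcript the level depends on them. The remaining members that reached 10 TPM were the H3 genes HIST1H3E, at 5.30 and 12.4 TPM, and HIST1H3H, at 8.13 and 11.8 TPM, in both cases in shNC only.

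The members listed at 0 in both libraries came from every class. They were the H1 genes HIST1H1A and HIST1H1T, the latter the testis linker histone. Of H2A they were HIST1H2AA, HIST1H2AD, HIST1H2AE, HIST1H2AL, HIST1H2AM and HIST2H2AB. Of H2B they were HIST1H2BA, a testis histone, with HIST1H2BG, HIST1H2BH, HIST1H2BI, HIST1H2BM, HIST2H2BA and HIST2H2BB. Of H3 they were HIST1H3A, HIST1H3G, HIST2H3A, HIST2H3C, HIST2H3D and the pseudogene HIST2H3DP1, and of H4 HIST1H4A, HIST1H4B, HIST1H4F, HIST1H4G, HIST1H4J and HIST1H4L. A count of 0 allows up to 3 counts in a library at this depth. Histone genes of a class can be near-identical, and reads that fit several copies may have been discarded or split: in 17 members at least 50% of the 100-base windows of the transcripts also occur in another gene, 7 of these were at 0 in both libraries, and all 17 together held 46 counts in shMBD2 and 53 in shNC. HIST2H3A, HIST2H3C, HIST2H4A and HIST2H4B are of this kind, and their values are uncertain. HIST1H2BK shares 28.4% of its windows with H2BFS, while HIST1H2AC, HIST1H1C, HIST1H2BD, HIST3H2A, HIST1H3H and HIST1H3E share none.

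**Figure D1:**
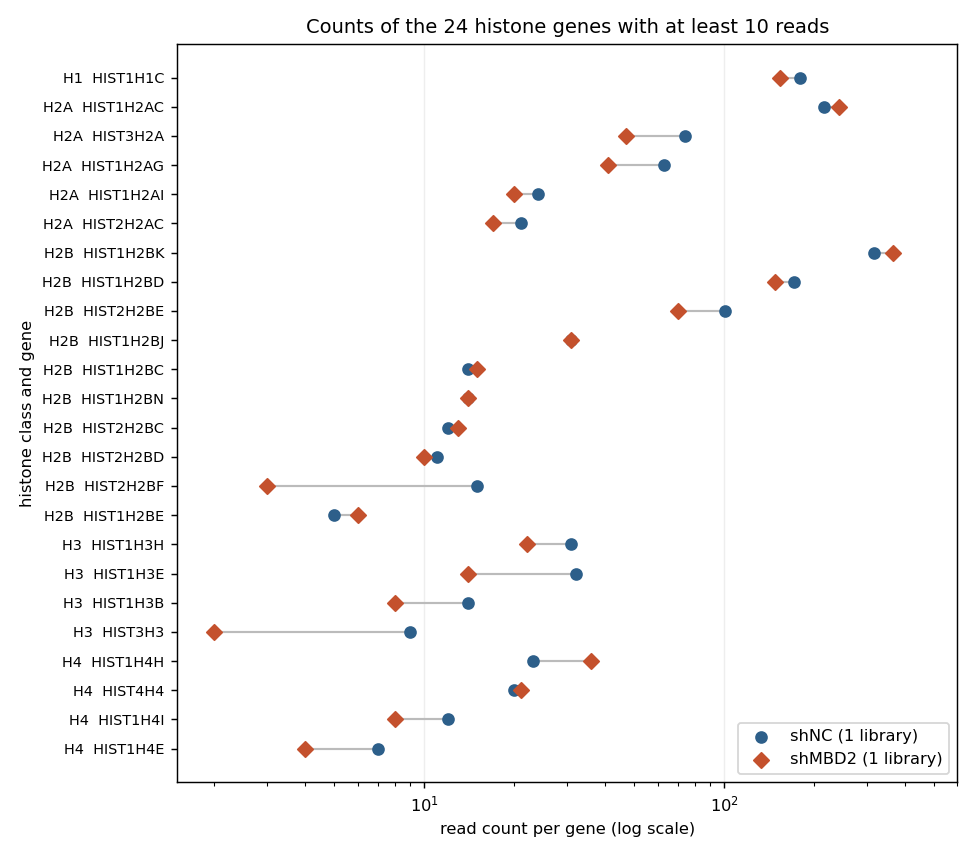
Read counts of the 24 members that passed the filter of 10 counts, on a log axis, ordered by histone class and then by summed count; circles are the shNC library and diamonds the shMBD2 library, and a grey line joins the values of 1 gene. HIST1H2BK (365 and 316 counts in shMBD2 and shNC) and HIST1H2AC (241 and 216) hold the most reads, and all 4 H3 genes have the shMBD2 value on the left.

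Many H2A and H2B genes lie head to head, a short distance apart, and share the DNA between their start sites. The members hold 14 such pairs, and in most of those with at least 30 counts in a gene the reads were very unequal. Several of the other pairs had at most 8 counts in either gene, too few to compare. HIST1H2AK, HIST2H2AA3 and HIST2H2AA4, each the gene with fewer reads in its pair, share nearly all of their windows with other genes. HIST1H2BK, with 365 and 316 counts, lies 242 bases from HIST1H2AH, which had 2 counts in each library. HIST1H2AC, with 241 and 216 counts, lies 219 bases from HIST1H2BC, which had 15 and 14. The gene with more reads was not always of the same class. HIST3H2A, with 47 and 74 counts, lies 248 bases from HIST3H2BB, with 0 and 2. HIST2H2BE had 70 and 101 counts, and its neighbour HIST2H2AC, 293 bases away, had 17 and 21. The pair HIST1H2AG and HIST1H2BJ, 291 bases apart, was the most even of those with at least 30 counts in a gene, with 41 and 63 counts against 31 in each library.

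Over all members the shMBD2 library held 91.5% of the shNC level, a log2FC of the summed counts of -0.13 (interval -0.24 to -0.021). Of the 24 members that passed the filter, 7 were higher and 17 lower in shMBD2, with a median log2FC of -0.25, where the median over all 17545 genes tested was -0.0082. None had a log2FC above 1, which 5.48% of all genes tested had, and 3 had a log2FC below -1, which 5.07% of all genes had. The 3 were HIST1H3E, HIST2H2BF and HIST3H3, and the latter pair had 3 and 2 counts in shMBD2. The interval lay below 0 in 5 members, HIST2H2BE, HIST3H2A, HIST1H2AG, HIST1H3E and HIST2H2BF, and above 0 in none, where it lay below 0 in 18.4% and above 0 in 19.7% of all genes tested. The share of members with an interval below 0 was thus near that of all genes. In RNA from whole cultures, fewer cells in S phase and less histone RNA per cell cannot be told apart.

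**Figure D2:**
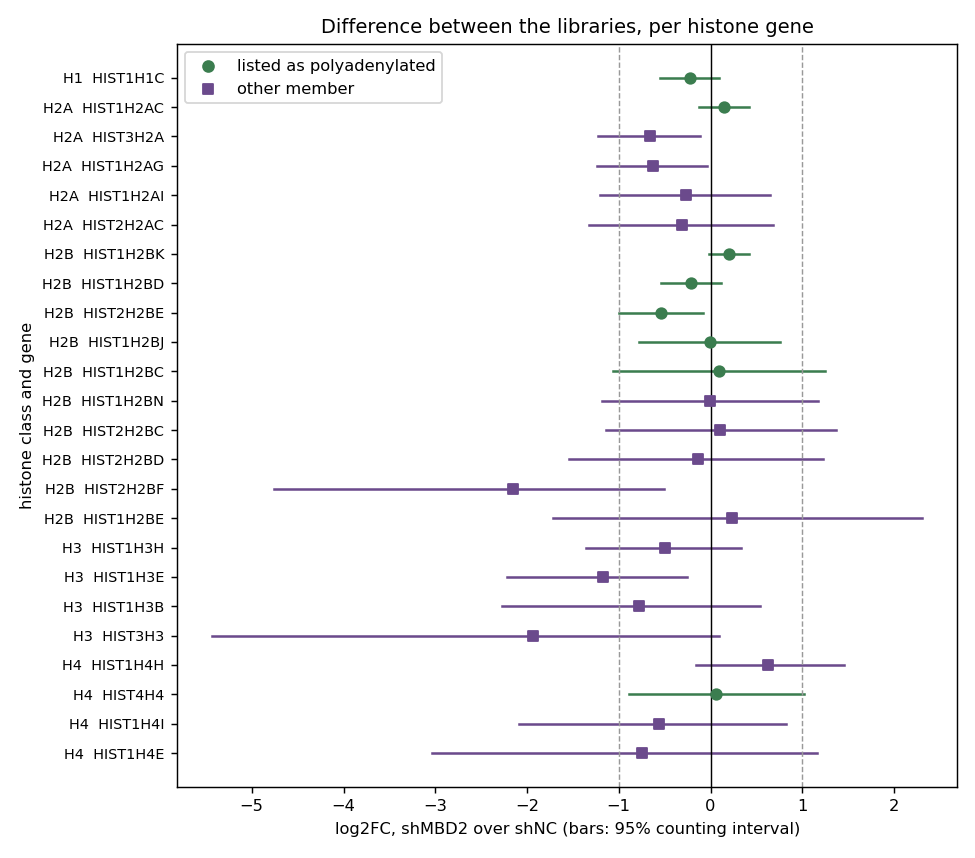
Log2FC (shMBD2 over shNC) of the 24 members with at least 10 counts, by histone class; bars are 95% counting intervals with 1 library per condition, green circles mark the members listed as having polyadenylated transcripts, purple squares the other members, and dashed lines stand at -1 and 1. Points run from -2.15 in HIST2H2BF to 0.63 in HIST1H4H, and 5 intervals lie wholly below 0.

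Linker histone H1 binds the DNA between nucleosomes. The class was nearly all HIST1H1C, which had 154 counts in shMBD2 and 179 in shNC, a log2FC of -0.23 (interval -0.55 to 0.093). Its interval held 0, and the H1 sum of 156 and 189 counts gave -0.28 (interval -0.60 to 0.028). Without HIST1H1C the class had 2 counts in shMBD2 and 10 in shNC, a log2FC of -2.08 (interval -5.56 to -0.10). HIST1H1D, the gene of H1.3, was listed at 0 in shMBD2 and at 9 in shNC. HIST1H1E had 2 and 0 counts and HIST1H1B 0 and 1. None of these 3 genes passed the filter.

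H2A and H2B form the dimers on the outside of the nucleosome core. The H2A class had 380 counts in shMBD2 and 406 in shNC, a summed log2FC of -0.10 (interval -0.31 to 0.10), and a median of -0.31 over 5 members. The sum lay closer to 0 than the median, and 1 gene held most of its reads. HIST1H2AC, with 241 and 216 counts, was higher in shMBD2, with a log2FC of 0.15 (interval -0.12 to 0.42). The other 4 members that passed the filter were lower. HIST3H2A, with 47 and 74 counts, had -0.66 (interval -1.22 to -0.12). HIST1H2AG, with 41 and 63 counts, had -0.62 (interval -1.23 to -0.039). Both intervals lay below 0, though that of HIST1H2AG only just. HIST1H2AI, which shares 57.7% of its windows with HIST1H2AJ, had 20 and 24 counts, and HIST2H2AC had 17 and 21, and their intervals held 0. Without HIST1H2AC the class had 139 counts in shMBD2 and 190 in shNC, a log2FC of -0.46 (interval -0.79 to -0.14).

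The H2B class held the most reads, 685 in shMBD2 and 705 in shNC, or 50.7% and 48.0% of all member counts, with a log2FC of -0.050 (interval -0.20 to 0.10). Its 10 members that passed the filter had a median of -0.0086, with 4 higher and 6 lower. HIST1H2BK, with 365 and 316 counts, had 0.20 (interval -0.022 to 0.42). HIST1H2BD, with 148 and 171 counts, had -0.22 (interval -0.54 to 0.11). The leading pair of H2B genes thus pointed opposite ways, each within counting error. HIST2H2BE, an H2B gene known for its polyadenylated mRNA in non-dividing cells, had 70 and 101 counts and a log2FC of -0.53 (interval -0.999 to -0.084). HIST1H2BJ had 31 counts in each library. HIST2H2BF, which was picked after its values were seen, had 3 counts in shMBD2 and 15 in shNC and a log2FC of -2.15 (interval -4.76 to -0.51). It shares 17.6% of its windows with 5 other genes, HIST2H2BE among them. The remaining 5, HIST1H2BC, HIST1H2BN, HIST1H2BE and the pseudogenes HIST2H2BC and HIST2H2BD, had 5 to 15 counts in a library and log2FC from -0.14 to 0.23.

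H3 and H4 form the tetramer at the centre of the nucleosome. Of the 5 classes, H3 had the summed log2FC farthest from 0. It had 52 counts in shMBD2 against 94 in shNC, 55.0% of the shNC level, with a log2FC of -0.86 (interval -1.38 to -0.36). Its share of the member counts was 3.85% in shMBD2 and 6.40% in shNC. All 4 H3 members that passed the filter were lower, with a median of -0.98. HIST1H3E, which codes for the H3.1 protein as several HIST1H3 genes do, had 14 and 32 counts and a log2FC of -1.17 (interval -2.22 to -0.25). HIST1H3H had 22 and 31 counts and -0.49 (interval -1.36 to 0.33). HIST1H3B had 8 and 14 counts, with an interval from -2.28 to 0.54. Taken singly, HIST1H3E alone had an interval below 0. HIST3H3, the testis H3 gene, had 2 and 9 counts and a log2FC of -1.93 (interval -5.43 to 0.094). Without HIST1H3H, the H3 gene with the most reads, the class sum gave a log2FC of -1.07. The other 3 testis members, HIST1H1T, HIST1H2AA and HIST1H2BA, had no reads.

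H4 is the partner of H3 in the tetramer. The class had 79 counts in shMBD2 and 75 in shNC, a log2FC of 0.066 (interval -0.41 to 0.54). HIST1H4H, with 36 and 23 counts, had the highest log2FC of any member that passed the filter, 0.63, but its interval ran from -0.16 to 1.46. Without HIST1H4H the sum of the class changed direction, to a log2FC of -0.28. HIST4H4, the single gene of its cluster, had 21 and 20 counts. HIST1H4I, with 8 and 12 counts, and HIST1H4E, with 4 and 7, were lower, and both intervals held 0. Reads of HIST1H4I and of the 1343 bases of HIST1H2BK that overlap it cannot be told apart where counting ignored strand, and the strand setting is not given in the sources used here.

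By cluster, the 55 HIST1 members together had 1162 counts in shMBD2 and 1195 in shNC, a log2FC of -0.049 (interval -0.17 to 0.068). Most HIST1 reads came from HIST1H2BK, HIST1H2AC, HIST1H1C and HIST1H2BD, which are on the list of polyadenylated members given below. Over the 16 HIST1 members that passed the filter the median was -0.22, with 5 higher and 11 lower. The median of the 5 HIST2 members that passed it was -0.31, with 1 higher and 4 lower. The summed counts of the smaller clusters on chromosome 1 were lower in shMBD2, but lower members were thus not confined to these clusters. The 16 HIST2 members had 119 and 169 counts, a log2FC of -0.51 (interval -0.87 to -0.17), of which HIST2H2BE made up 70 and 101. The 4 HIST3 members had 50 and 85 counts and -0.77 (interval -1.31 to -0.25), of which HIST3H2A made up 47 and 74.

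A list of 8 members known to make polyadenylated transcripts (HIST1H1C, HIST1H2AC, HIST1H2BC, HIST1H2BD, HIST1H2BJ, HIST1H2BK, HIST2H2BE and HIST4H4) held 77.3% of the member counts in shMBD2 and 71.3% in shNC. Its sum was level between the libraries, with 1045 counts in shMBD2 and 1048 in shNC, a log2FC of -0.013 (interval -0.14 to 0.11), and 4 members were higher and 4 lower. The other 68 members had 307 counts in shMBD2 and 421 in shNC, 72.5% of the shNC level, with a log2FC of -0.46 (interval -0.68 to -0.25). Of the 16 among them that passed the filter, 3 were higher and 13 lower, with a median of -0.53. The difference between both sets of genes, taken as the log2 of the odds ratio of their reads, was -0.45 (interval -0.70 to -0.20). Without HIST3H2A, the gene with the most reads among the 68, it was -0.41 (interval -0.68 to -0.14). These intervals hold the error of counting reads and not the spread between genes or between cultures. Whether the sets differ beyond that spread was not tested. Of these other members, H1 had a log2FC of -2.08 (2 and 10 counts), H2A -0.46, H2B -0.37, H3 -0.86 and H4 0.067. The 24 members annotated to run at least 100 bases past the stem-loop had a log2FC of -0.20 (interval -0.37 to -0.034). The 52 remaining members, HIST1H2BK and HIST1H1C among them, had -0.076 (interval -0.22 to 0.066). Some members that passed the filter are annotated to run at least 100 bases past the stem-loop but are not on the list of 8. Of these, HIST1H2AG, HIST3H2A and HIST2H2BF were lower with intervals below 0. HIST1H3H, HIST1H4E, HIST1H4I, HIST2H2BD and HIST1H2BN were lower with intervals that held 0. HIST1H4H (0.63), HIST1H2BE (0.23) and HIST2H2BC (0.10) were higher with intervals that held 0. The intervals of both sets overlapped. Of the 52, 32 have only annotated transcripts that end at the stop codon, HIST1H2BK and HIST1H1C among them. Whether these run past a stem-loop is thus not known, and this division cannot show if members without an extension were lower.

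Other RNAs that lack a poly(A) tail are given beside these values. Of 10 such genes, the signal recognition particle RNAs RN7SL1, with 223 and 201 counts, and RN7SL2, with 198 and 234, held most reads, and the sum of all 10 was 436 in shMBD2 and 473 in shNC, a log2FC of -0.13 (interval -0.32 to 0.064). The other 8, a division made after the values were seen, had 15 counts in shMBD2 and 38 in shNC, a log2FC of -1.32 (interval -2.32 to -0.45). RMRP, the RNA of RNase MRP, was at 0 in shMBD2 and 12 in shNC, and the interval of its log2FC lay below -1.48. RPPH1, the RNA of RNase P, had 3 and 9 counts, RN7SK, an RNA that restrains transcription elongation, 1 and 7, and SNORD3A, the U3 small nucleolar RNA, 1 and 5. TERC, the telomerase RNA, had 2 in each library, and SCARNA2, SCARNA5 and SCARNA6 had 2, 3 and 3 counts in shMBD2 and 1 each in shNC. The part that the recovery of RNA without a tail has in the lower histone counts was not tested.

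**Figure D3:**
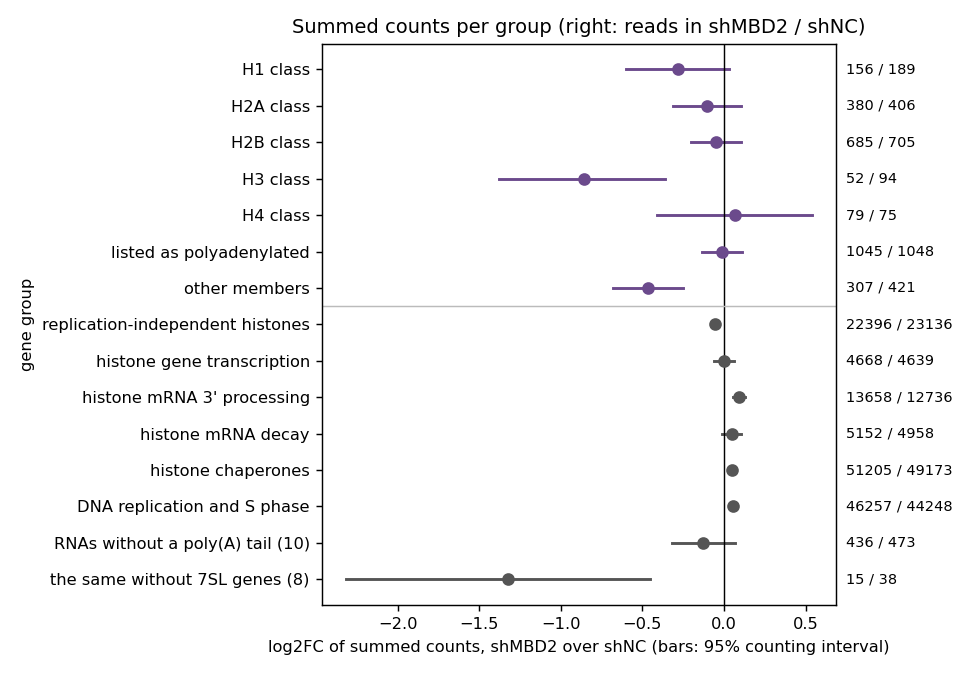
Log2FC (shMBD2 over shNC) of the summed counts of each histone class, of the members listed as polyadenylated and of the other members (above the line), and of related gene lists (below it); bars are 95% counting intervals, and the summed reads of both libraries stand at the right. The H3 class (-0.86), the other members (-0.46) and the RNAs without a tail other than the 7SL genes (-1.32) lie below 0, and the lists of histone-related proteins lie close to 0.

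Other histone genes are also expressed outside S phase, mostly as mRNAs with a poly(A) tail, and supply variants such as H3.3. H2AFX is known to make a stem-loop mRNA as well, and it was among the 6 other genes with the stem-loop pattern. Of 20 such variant genes, 12 passed the filter, with 5 higher, 7 lower and a median of -0.026, and 8, among them the germ-cell genes H1FNT and H1FOO, were at 0 in both libraries. Per length they far outweighed the members in these libraries. Whether poly(A) RNA was selected is not given, and such a selection would deplete members without a tail. The levels of variants against members below may thus differ from those in the cells, which was not tested. H3F3A and H3F3B, which both code for H3.3, summed to 503.5 TPM in shMBD2 and 531.4 in shNC, where the 15 H3 members summed to 19.1 and 35.5 TPM. The ratio was 26.4 in shMBD2 and 14.9 in shNC. For H2A, 6 variant genes summed to 576.6 and 582.8 TPM and the members to 63.4 and 74.5, and for H1, H1F0 and H1FX summed to 309.6 and 362.6 TPM and the members to 37.2 and 46.2. Among the variants with at least 100 counts, H2AFY2, a macroH2A gene, had 796 and 695 counts and a log2FC of 0.19 (interval 0.038 to 0.34), and H2AFY, the other macroH2A gene, had 3056 and 2693 and 0.17 (interval 0.098 to 0.25). CENPA, the centromeric H3, had 434 and 591 counts and -0.45 (interval -0.64 to -0.27), and H2AFV, an H2A.Z gene, had 2643 and 3121 and -0.25 (interval -0.32 to -0.17). H3F3C, named after its values were seen, had 20 and 7 counts and was the only gene of the list with a log2FC past 1, at 1.44 (interval 0.21 to 2.99). It is a copy that arose from H3F3B, and reads of both may not be told apart.

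**Figure D4:**
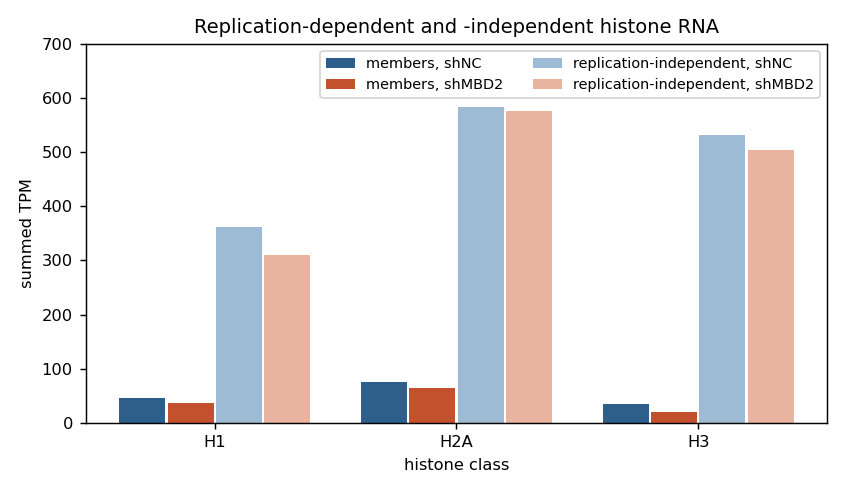
Summed TPM (linear axis from 0) of the replication-dependent members and of the replication-independent genes of classes H1, H2A and H3, in 1 library per condition, so no error bar is drawn. The H3 members reach 19.1 TPM in shMBD2 and 35.5 in shNC, against 503.5 and 531.4 TPM for H3F3A and H3F3B. A poly(A) selection, which is not given, would lower the members against the replication-independent genes.

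For the machinery that makes, processes and places histones, the medians of the gene lists ran from -0.047 to 0.10, while single genes such as CCNE1 differed more. Of 9 genes of the histone locus body and histone gene transcription, 3 were higher and 6 lower, with a median of -0.047. CCNE1, cyclin E1, which drives S phase entry and activates NPAT, had 612 and 374 counts and a log2FC of 0.70 (interval 0.51 to 0.89), and its kinase CDK2 had 454 and 366 counts and 0.30 (interval 0.10 to 0.50). The lowest were POU2F1, the OCT1 factor that acts on H2B promoters, at -0.26 (interval -0.38 to -0.13), and CCNE2, cyclin E2, at -0.24 (interval -0.64 to 0.15). NPAT, the coactivator of histone genes, had 446 and 458 counts.

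Of 12 genes of histone mRNA 3′ end processing, 10 were higher and 2 lower, with a median of 0.10. SLBP, which binds the stem-loops given above, had 1224 and 1217 counts, a log2FC of -0.00060 (interval -0.12 to 0.12). Among those with at least 100 counts, SRRT, the cap-complex partner ARS2, had the highest log2FC, 0.22 (interval 0.13 to 0.31), followed by CSTF2, a cleavage factor, at 0.18 (interval 0.014 to 0.34). LSM11, a subunit of the U7 particle, had the lowest, -0.087 (interval -0.37 to 0.20). Of 6 genes of histone mRNA decay, 2 were higher and 4 lower, with a median of -0.040. ERI1, the exonuclease that trims histone mRNA at the stem-loop, had 955 and 755 counts and 0.33 (interval 0.19 to 0.47). UPF1, a helicase needed for histone mRNA decay, had 1322 and 1079 counts and 0.28 (interval 0.17 to 0.40). XRN1, a 5′ to 3′ exonuclease, had -0.24 (interval -0.37 to -0.098), and ZCCHC11, a uridylyltransferase, -0.13 (interval -0.25 to -0.0087).

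Histone chaperones, which carry histones to and from DNA, had 20 of 21 genes past the filter, with 15 higher, 5 lower and a median of 0.059. They ran from MMS22L at -0.26 and RBBP7 at -0.096 to DAXX at 0.16 and SUPT6H at 0.22. Of 24 genes of DNA replication and S phase, 14 were higher and 10 lower, with a median of 0.056. UHRF1, which couples DNA methylation to replication, at 0.24 (interval 0.12 to 0.37), and MCM2, a subunit of the replicative helicase, at 0.23 (interval 0.13 to 0.32), were highest. TK1, thymidine kinase, at -0.22 (interval -0.31 to -0.12), and CDC45, at -0.20 (interval -0.38 to -0.016), were lowest. No gene of these 5 lists had a log2FC past 1 or -1.

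The cholangiocyte markers were present in both libraries, with KRT7 at 11632 counts in shMBD2 and 12975 in shNC, and 2 of the 6 were higher and 4 lower in shMBD2. Of 8 leukocyte markers, 3 passed the filter and all 3 were higher in shMBD2: LAPTM5 had 29 and 3 counts, a log2FC of 3.07 (interval 1.57 to 5.62), CORO1A had 56 and 19, a log2FC of 1.53 (interval 0.78 to 2.38), and CD14 had 152 and 126, with an interval that held 0. CD52 and CD3E were at 0 in both libraries, PTPRC and TYROBP at 0 in shMBD2 and 1 in shNC, and CD79A at 3 and 4. The leukocyte list summed to 20.2 and 14.3 TPM, a log2FC of the summed counts of 0.63 (interval 0.33 to 0.93). The 5 fibroblast markers summed to 8.39 TPM in shMBD2 and 3.95 in shNC. They had 315 and 138 counts in all and a log2FC interval from 0.89 to 1.48. COL1A1 made up 308 and 124 of these counts. The others were not higher in shMBD2: COL3A1 had 1 and 6 counts, LUM 5 and 6, DCN 1 and 1, and COL1A2 0 and 1. The part of these cell type markers in the histone values was not tested.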

How the data were processed

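RNA from TFK1 cells carrying shMBD2 or shNC was sequenced, 1 library each. Per the labels, total RNA was extracted with TRIzol and libraries were made with the VAHTS Universal V6 kit; the submitters' processing notes name fastp, HISAT2 2.1.0, featureCounts, DESeq 1.18.1 and the build GRCh38.p13. Strand setting, read length, handling of reads with several matches and poly(A) selection are not given in the sources used here. The authors deposited raw read counts per gene and a second table of TPM. Of 63677 rows with an Ensembl identifier (46 lines without a gene were dropped), repeats of a symbol with the same values were merged, and 92 histone rows became 76 members. Gene positions in the tables differ from GENCODE 29 for every member and were not used with it. The extent of a gene can differ too: by the deposited positions HIST1H2BK overlaps HIST1H4I over 1343 bases, while its GENCODE 29 transcript has 381 bases. The bases past the stem-loop and the shared windows describe GENCODE 29 transcripts, which may not be the sequences on which reads were counted.

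Library sizes were scaled with TMM (edgeR 4.0.16, R 4.3.3). Scaling by total counts instead moved log2FC by -0.017. A prior of 0.5 counts, a filter of 10 summed counts and a floor of 3 counts were used, and intervals were computed with scipy 1.17.1. Because the conditions have 1 library each, no test across genes was run. Alternatives were DESeq2 1.42.0 size factors, total counts, upper-quartile factors, log2 of TPM plus 0.1 or 1, prior counts of 0.1 and 2, filters of 1 and 100 counts, and sums without subsets of members. Scripts were tested on simulated counts.

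The members and gene lists were chosen with earlier results of these data known. Named genes are MBD2, members with at least 100 counts in the higher library, the 5 highest and 5 lowest log2FC among members with at least 30, members at 0, and the 2 highest and lowest of each list at 100 counts or more. Other genes were named after their values were seen. Protein sequences were not used here.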

Additional observations from a re-analysis of the deposited data

How the results depend on the processing

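With 1 library per condition, no alternative replaces a replicate. No paired analysis was possible because shMBD2 and shNC are single libraries with no shared replicate numbers. All 168 values of single members (24 members under 7 other scalings, priors or TPM scales) stayed within their counting intervals and none changed sign, though HIST1H2BJ and HIST1H2BN came to 0 with DESeq2 size factors. The class sums depended on which members entered them. Without its most abundant member, or without the polyadenylated list, H1 went from -0.28 to -2.08 and H2A from -0.10 to -0.46. H4 changed direction, from 0.066 to -0.28, without HIST1H4H. H2B went from -0.050 to -0.29 without HIST1H2BK and to -0.37 without the polyadenylated list. With a filter of 1 count, the H1 median was -0.91, 8 members lay above 1 and 9 below -1. With a filter of 100 counts, none lay below -1, since fewer members were tested. The H1 median without the polyadenylated list, and the H3 and H4 medians at 100 counts, were not run because no member remained. The sum of the other 68 members ranged from -0.49 to -0.42 and that of the polyadenylated list from -0.12 to -0.0041. The class sums without the polyadenylated list, the sets without pseudogenes, and the alternatives for the sums of the polyadenylated list and of the other members were chosen after seeing the data.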
